A study of Canis lupus familiaris with 33 samples.

Results

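Dog chromosome 13 beyond 38 Mb, counted on the CanFam3.1 assembly, held 217 members of the 30951 genes in the deposited count table. A member starts at or beyond 38000000 on chromosome 13, has at least 2 exons and spans less than 500 kb. Of the 268 genes that start there, 47 were left out for having 1 exon, 1 for a longer span, and 3 because they start between 46.5 and 47.6 Mb and have at least 20 exons. The segment was chosen because its genes differed between tumour and control brain in these same libraries. All tumour-against-control values of the members are therefore a description, and nothing is supported with them.

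A whole chromosome or an arm can be gained or lost in a tumour, and RNA from many neighbouring genes can then move together by small amounts. RNA levels do not measure copy number, and single genes in such a segment can still move either way. The end of dog chromosome 13 is largely the counterpart of human chromosome 4. The RefSeq annotation of another dog assembly (UU_Cfam_GSD_1.0) places on chromosome 13 PDGFRA, a growth factor receptor of oligodendrocyte precursor cells, KIT and KDR, related receptor kinases, GABRA2, GABRA4, GABRB1 and GABRG1, subunits of receptors for the inhibitory transmitter GABA, REST, a repressor of neuronal genes, CLOCK, a circadian transcription factor, and ALB and AFP, serum proteins made in liver. The count table gives Ensembl identifiers only, and the RefSeq table paired 0 of 30951 of them with a symbol. No member can therefore be tied to one of these names here, and members are described by position, exons and values.

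The study compared oligodendroglioma, a tumour of glial cells, with control brain, and formalin-fixed paraffin-embedded (FFPE) with fresh-frozen tissue, in 33 RNA libraries of 25 dogs sampled at necropsy 1 to 18 hours after death, per the labels. FFPE tumours (11 dogs, 9 of grade III and 2 of grade II) came from 6 French Bulldogs, 4 Boxers and 1 Pomerian, with 9 stated ages of 4.7 to 12 years. FFPE controls (10 dogs) were 5 French Bulldogs, 4 Boxers and 1 Bolonka Swetna, with 5 stated ages of 2 to 8 years. Fresh-frozen tumours (6 dogs, 5 of grade III and 1 of grade II) were 3 French Bulldogs, 1 Boxer, 1 Border Terrier and 1 Pomerian of 4.7 to 10 years (5 stated), and fresh-frozen controls (6 dogs) were 2 French Bulldogs, 1 Berner sennenhund, 1 Bolonka Swetna, 1 Hovawart and 1 Mongrel of 2.8 to 10.2 years (5 stated). The labels give each library of a group its own dog. Both an FFPE and a fresh-frozen library exist for tumour dogs 60461, 60636, 60679, 60749 and 60127 and for control dogs 60460, 60126 and 60462, so the tumour comparisons of FFPE and fresh-frozen tissue share 8 dogs. Markers of neurons, oligodendrocytes and other cells could not be looked up without gene names, so the labelled tissue and its mix of cells were not tested. In these bulk samples, fewer cells of a type and less RNA per cell cannot be told apart.

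Library totals were 1752162 to 12501029 counts in FFPE tumours, 406406 to 32584840 in FFPE controls, 9765907 to 25168080 in fresh-frozen tumours and 15255966 to 26726025 in fresh-frozen controls. The fresh-frozen libraries of dogs 60126, 60127, 60461 and 60462 stood apart from the other 8. Principal components were taken on the deviations of all tested genes from their tumour or control mean. On the second component (23.3% of the variance of these deviations) the libraries of these dogs lay between 0.31 and 0.47, and the others at or below -0.06. They are 2 tumours and 2 controls, and fresh-frozen counts are given with and without them.

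The members lay between 38066802 and 63189835 and had 2 to 67 exons (median 5). Their exonic length was 259 to 15036 bp (median 1530 bp). There were 108 on the plus strand, and 39 overlapped another annotated gene, 17 of them on the same strand. Expression in brain was uneven. Of the 217 members, 76 had at least 10 counts in all 12 fresh-frozen libraries and 88 in none. In the shallower FFPE libraries, 30 had at least 10 counts in all 21 and 82 in none. Control dog 60462 stood apart, with any count for 202 members in its FFPE library (1596967 counts) and for 200 in its fresh-frozen library. The next library was fresh-frozen tumour 60461 with 179, and FFPE control 60126 had 144 (32584840 counts). The cause was not tested. In fresh-frozen controls the level per exonic kb of the 90 members tested there ran from -2.84 to 7.66 on the log2 CPM scale, CPM being a gene's counts scaled to a fixed library total, with a median of 3.62, against 3.22 for all tested genes. The most abundant member by this measure started at 38.10 Mb (6 exons), followed by members at 48.83 Mb (3 exons, 7.41), 60.01 Mb (25 exons, 6.90), 39.06 Mb (18 exons, 6.76) and 39.37 Mb (39 exons, 6.73). Few genes were expressed in the middle of the segment: 22 members started between 50 and 58 Mb, a stretch picked after the values were seen, and 2 of them had enough counts to be tested. The segment gave 0.670% ± 0.205 of all counts in FFPE tumours (SD, n = 11) and 0.479% ± 0.120 in FFPE controls (n = 10). It gave 0.916% ± 0.349 in fresh-frozen tumours and 0.585% ± 0.0414 in fresh-frozen controls (n = 6 each).

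In FFPE tissue, 82 members passed the filter on low counts and 22 of them (26.8%) were higher in tumour at an edgeR adjusted p under 0.05, where 10.1% of all 13338 genes tested were higher. Another 8 (9.76%) were lower, where 11.1% of all genes were. The members' log2 fold changes ran from -3.01 to 2.16 with a median of 0.49, against 0.02 for all genes, and 57 were above 0. Of the called members, 14 were higher and 6 lower by at least 2-fold. No member had every tumour above or every tumour below every control (0 and 0, where 0.127% and 0.277% of all genes did). Because the segment was chosen on this contrast, nothing is read from these shares. DESeq2 called 15 members lower (11.7%, all genes 11.9%), and 24 were lower without the filter on low counts (11.2%, all genes 8.84%). Without the FFPE libraries of the 8 dogs with both preservations, 9 of 81 members were higher (11.1%, all genes 4.01%) and 5 lower (6.17%, all genes 5.51%). In the 9 tumours and 5 controls whose FFPE label states an age, 4 of 88 members were higher (4.55%, all genes 2.27%) and 2 lower (2.27%, all genes 2.12%). With age added to that fit, 0 of 93 members were higher and 0 lower (all genes 0.38% and 0.387%). Tumour dog 60461 was left out of both fits, as its age of 8.8 years is given for its fresh-frozen library alone. Age and tumour cannot be fully told apart because the stated ages differ between the groups. The median depends on the filter: over all genes with any count it was -1.04 for the members and -0.41 for all genes.

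In fresh-frozen tissue, 90 members were tested and 35 (38.9%) were higher in tumour, where 18.3% of all 15057 genes were. Another 11 (12.2%) were lower, where 12.2% of all genes were. Log2 fold changes ran from -3.03 to 2.64 with a median of 0.56, against 0.10 for all genes, and 61 were above 0. Of the called members, 32 were higher and 10 lower by at least 2-fold. In 9 members every tumour lay above every control (6.35% of all genes did so), and in 6 every tumour lay below (5.13% of all genes). Without dogs 60126, 60127, 60461 and 60462, 13 of 92 members were higher (14.1%, all genes 8.74%) and 1 lower (1.09%, all genes 6.42%). Without the filter on low counts 6 were lower (2.84%, all genes 4.76%). The 11 lower calls also fell by more than 1.5 times when 1 library was left out. They fell to 7 without tumour 60631, tumour 60749, control 60126 or control 60462. They fell to 6 without control 60459 or 60460, and to 5 without tumour 60461 or control 60629. Lower calls over all genes moved too, from 1837 to between 1145 (without control 60629) and 2335 (without tumour 60636).

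**Figure D1:**
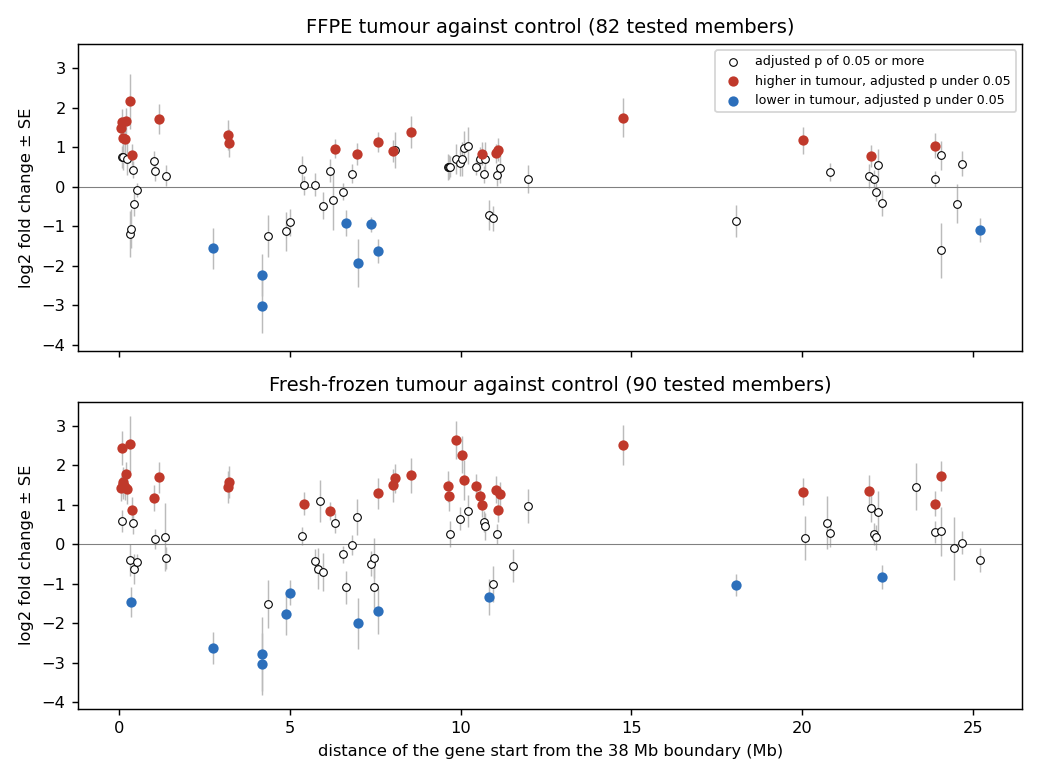
Log2 fold change of tumour against control (y axis, bars are SE) for each tested member by the distance of its start from the 38 Mb boundary in Mb (x axis), in FFPE tissue (top, 82 members) and fresh-frozen tissue (bottom, 90 members). Red points were higher and blue points lower at an edgeR adjusted p under 0.05, 22 and 8 at the top and 35 and 11 at the bottom, and few members between 12 and 20 Mb from the boundary had enough counts to be drawn.

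Of the 80 members tested in both preservations, 19 (23.8%) were higher in both and 5 (6.25%) lower in both, beside 8.59% and 6.52% of the 13044 genes tested in both. A further 3 were higher in FFPE alone (3.75%, all genes 1.69%) and 16 in fresh-frozen alone (20%, all genes 10.5%). Lower in FFPE alone were 3 (3.75%, all genes 4.71%) and in fresh-frozen alone 6 (7.5%, all genes 5.95%). No member (0) and 1 of all genes was called in opposite directions. The other members were tested in FFPE alone (2), in fresh-frozen alone (10) or in neither (125).

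The highest members of the order by the smaller of both fold changes were a 2-exon gene and a 5-exon gene. ENSCAFG00000047276 (chromosome 13, 52740457 to 52742388, plus strand, exonic length 1276 bp) overlapped 1 annotated gene on the other strand. Its level in FFPE tumours was 3.53 at the lowest, 5.32 at the median and 7.70 at the highest log2 CPM, and in FFPE controls 1.70, 3.91 and 5.64. In fresh-frozen tumours the lowest, median and highest were 3.19, 4.76 and 6.02, and in fresh-frozen controls 1.58, 2.72 and 2.95. The fresh-frozen groups did not overlap, while 4 of 11 FFPE tumours lay above every FFPE control. The log2 fold change was 1.75 ± 0.50 (SE) in FFPE and 2.52 ± 0.51 in fresh-frozen tissue.

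ENSCAFG00000001802 (39162575 to 39186008, minus strand, 1218 bp, overlapping no other gene) was higher by 1.71 ± 0.38 in FFPE and by 1.70 ± 0.40 in fresh-frozen tissue on the log2 scale. FFPE tumours held 2.87, 3.96 and 5.94 log2 CPM at the lowest, median and highest, and FFPE controls 1.77, 2.45 and 3.68. Fresh-frozen tumours held 3.38, 5.01 and 5.89, and fresh-frozen controls 2.93, 3.17 and 3.73. The groups overlapped in both preservations, with 6 of 11 FFPE tumours and 4 of 6 fresh-frozen tumours above every control.

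The lowest members of the order were neighbours on the minus strand. ENSCAFG00000001878 (42200202 to 42276711, 11 exons, 2181 bp) held -0.17, 3.46 and 6.12 log2 CPM at the lowest, median and highest in FFPE tumours and 4.70, 6.37 and 7.32 in FFPE controls. It held -1.47, 3.002 and 4.83 in fresh-frozen tumours and 5.47, 6.59 and 6.74 in fresh-frozen controls. Every fresh-frozen tumour lay below every control, as did 8 of 11 FFPE tumours against their controls. The log2 fold change was -2.23 ± 0.53 in FFPE and -3.03 ± 0.78 in fresh-frozen tissue, where the edgeR adjusted p was 0.0534 without dogs 60126, 60127, 60461 and 60462.

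ENSCAFG00000044799 (42193352 to 42196861, 2 exons, 1251 bp) held -1.61, 2.30 and 5.33 log2 CPM in FFPE tumours and 3.83, 5.39 and 8.30 in FFPE controls. It held -3.28, 1.01 and 3.54 in fresh-frozen tumours and 2.84, 4.20 and 5.42 in fresh-frozen controls. The lowest value of each tumour group is that of a count of 0, reached in FFPE tumour 50416 and fresh-frozen tumours 60631 and 60749. The log2 fold change was -3.01 ± 0.69 in FFPE tissue, with 8 of 11 tumours below every control, and -2.78 ± 0.94 in fresh-frozen tissue, with 5 of 6. The fresh-frozen call rests on most libraries: it was lost without tumour 60636, 60679 or 60461 or control 60459, 60460, 60629, 60126 or 60462, with edgeR adjusted p from 0.0569 to 0.0816. In both preservations dog 60127 kept the highest tumour level of this gene, at 5.33 (FFPE) and 3.54 (fresh-frozen), and dog 60749 had -1.29 and -3.28.

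**Figure D2:**
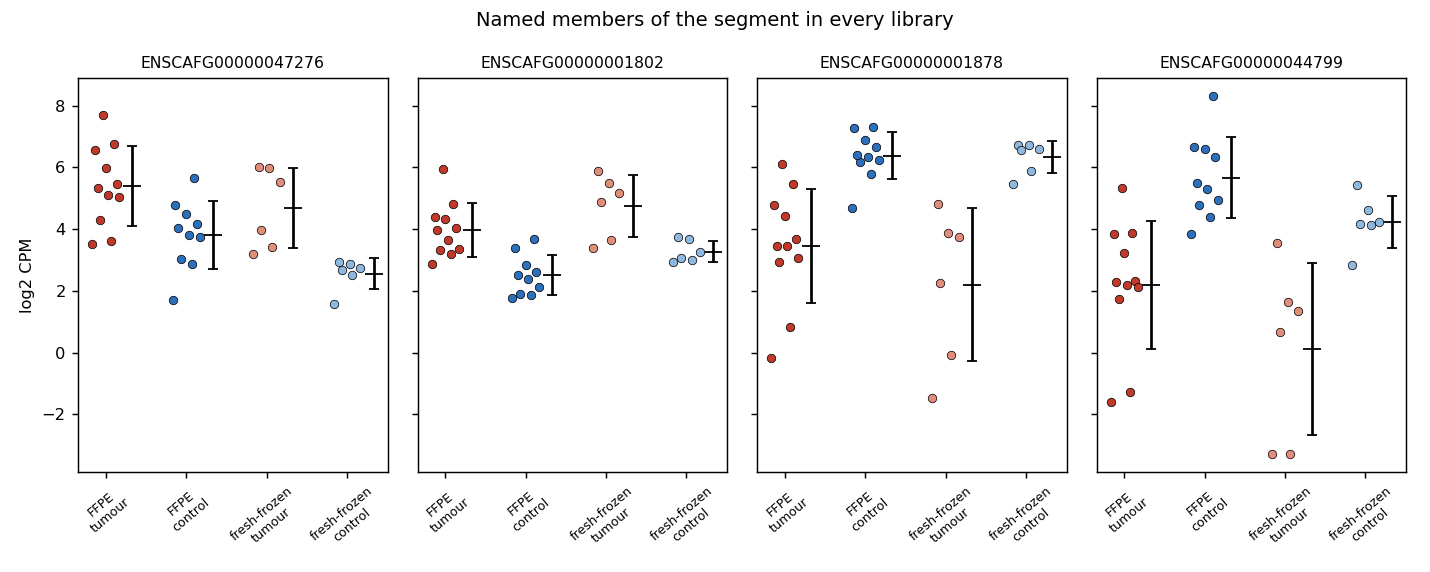
Log2 CPM (y axis) of 4 members in every library, by group (x axis): FFPE tumour (n = 11), FFPE control (n = 10), fresh-frozen tumour and control (n = 6 each); bars are the mean ± SD. ENSCAFG00000047276 and ENSCAFG00000001802 sit higher in tumours. Tumour values of ENSCAFG00000001878 and ENSCAFG00000044799 scatter down to -0.17 and -1.61 in FFPE tissue and to -1.47 and -3.28 in fresh-frozen tissue. Some tumours reach control level, but for ENSCAFG00000001878 no fresh-frozen tumour does.

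The start of the segment held a run of higher genes. Between 38 and 38.5 Mb, limits picked after the values were seen, lay 16 members, of which 14 were tested. In FFPE tissue 7 were higher and 0 lower (median log2 fold change 0.79), and in fresh-frozen tissue 9 were higher and 1 lower (median 1.40). Without them the segment still held 15 higher and 8 lower members in FFPE and 26 higher and 10 lower in fresh-frozen tissue, with medians of 0.41 and 0.39.

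The first member, at 38.07 Mb (5 exons), had 4.20, 4.83 and 6.67 log2 CPM at the lowest, median and highest in FFPE tumours against 1.90, 3.71 and 4.23 in controls. In fresh-frozen tissue it had 5.20, 5.81 and 7.00 in tumours and 4.45, 4.64 and 4.89 in controls. All 6 fresh-frozen tumours and 10 of 11 FFPE tumours lay above every control of their preservation. Its log2 fold change was 1.48 ± 0.29 in FFPE and 1.42 ± 0.31 in fresh-frozen tissue. The most abundant member per kb, at 38.10 Mb, rose from a control median of 6.64 to a tumour median of 8.45 log2 CPM in FFPE and from 7.39 to 9.88 in fresh-frozen tissue, and 8 of 11 and 6 of 6 tumours lay above every control. The member at 38.20 Mb (6 exons) was higher by 1.67 ± 0.33 and 1.78 ± 0.31.

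Just outside the 38 Mb limit, the last 3 genes, at 37.94, 37.94 and 37.95 Mb, had log2 fold changes of 0.46, 0.25 and 0.54 in FFPE tissue and 0.34, 0.10 and -0.08 in fresh-frozen tissue. Just inside, the members at 38.07, 38.09 and 38.10 Mb had 1.48, 0.76 and 1.63 in FFPE tissue and 1.42, 0.59 and 2.44 in fresh-frozen tissue. The longest member (45.59 Mb, 16 exons, span 413.4 kb) had 1.13 and 1.30, and the gene left out for its span of 628.9 kb (52.91 Mb) had 1.52 and 2.34. The 3 genes left out between 46.5 and 47.6 Mb had 3.15, -0.68 and 1.06 in FFPE tissue and 5.21, -0.91 and 1.43 in fresh-frozen tissue. The 7 members in the same interval have at most 6 exons. One of them, at 46.56 Mb, had 4.63 ± 0.82 log2 CPM in FFPE tumours (SD, n = 11) and 2.77 ± 1.79 in controls (n = 10), and its log2 fold changes were 1.40 ± 0.40 and 1.75 ± 0.44.

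Called members of both directions lay along the segment. In steps of 5 Mb, members starting from 38 to 43 Mb had 10 of 27 tested higher and 3 lower in FFPE tissue (median 0.66). In fresh-frozen tissue 13 of 28 higher and 6 lower (median 0.56). From 43 to 48 Mb, 5 of 23 were higher and 4 lower in FFPE (median 0.45). The fresh-frozen counts there were 9 higher and 2 lower of 26 (median 0.40). From 48 to 53 Mb the medians were 0.70 and 0.96, with 4 of 16 and 9 of 17 members higher and 0 and 1 lower. Between 53 and 58 Mb, 1 of 12 members was tested, with log2 fold changes of -0.86 in FFPE and -1.02 in fresh-frozen tissue, where it was called lower. From 58 Mb to the end, 3 of 15 and 4 of 18 were higher and 1 and 1 lower (medians 0.26 and 0.32), including a 59-exon gene at 58.01 Mb with tumour and control medians of 8.01 and 6.83 log2 CPM in FFPE tissue and 8.50 and 7.15 in fresh-frozen tissue.

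Several lower members lay close together. All 5 tested members between 42 and 43 Mb, limits again picked after the values were seen, had fold changes below 0 in both preservations. Of these, 2 were called lower in FFPE (median -1.24) and 4 in fresh-frozen tissue (median -1.75), where 11.1% and 12.2% of all genes were. Elsewhere a 4-exon gene at 45.58 Mb had medians of 2.52 in FFPE tumours and 4.34 in FFPE controls, and 2.19 and 4.31 in the fresh-frozen groups (log2 fold changes -1.63 ± 0.30 and -1.69 ± 0.59). It starts next to the longest member, which was higher in both. A 4-exon gene at 40.74 Mb fell below every control in all 6 fresh-frozen tumours, with medians of 1.31 against 3.99 log2 CPM, and it was also called lower in FFPE tissue, by -1.56 ± 0.52 on the log2 scale. Its FFPE groups overlapped, at -0.54 to 3.26 in tumours and -1.61 to 4.26 in controls, the lowest control being 50315, the library with the fewest counts, and the next control lay at 0.97.

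Members were also grouped by exon number. Those of 2 to 4 exons had 2 higher and 4 lower of 15 tested in FFPE and 6 and 4 of 20 in fresh-frozen tissue. Those of 5 to 9 exons had 11 higher and 1 lower of 27, and 14 and 2 of 28. Those of 10 or more exons had 9 higher and 3 lower of 40, and 15 and 5 of 42. Across tested members, Spearman's rho of the fold change with span was -0.22 in FFPE and -0.20 in fresh-frozen tissue, and with the control level per kb -0.26 and -0.23, as descriptions across genes that share libraries.

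The level of the whole segment was then read in each library. For each tested member the midpoint between its tumour and control means was subtracted from its log2 CPM, and the median of these values over the members, less the same median over all tested genes, is the level. FFPE tumours ran from -0.46 to 0.86 with a median of 0.19 and FFPE controls from -0.58 to 0.22 with a median of -0.20. Fresh-frozen tumours ran from -0.36 to 0.92 (median 0.17) and controls from -0.37 to -0.03 (median -0.26). The groups overlapped in both preservations, with 5 of 11 and 4 of 6 tumours above every control. The means differed by 0.42 in FFPE (pooled SD 0.31) and 0.44 in fresh-frozen tissue (pooled SD 0.38), as a description. The FFPE difference was -0.030 without the filter on low counts.

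**Figure D3:**
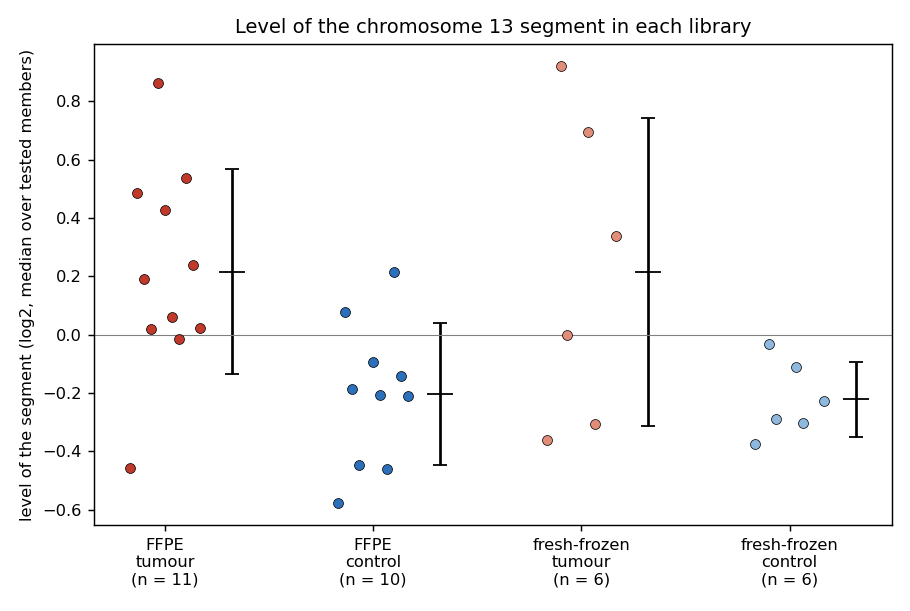
Level of the segment (log2, y axis) in each library by group (x axis), with the mean ± SD as bars. FFPE tumours run from -0.46 to 0.86 and fresh-frozen tumours from -0.36 to 0.92, wider than the controls, and both tumour groups overlap their controls.

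In fresh-frozen tissue the SD of the level was 0.53 among tumours and 0.13 among controls, and in FFPE tissue 0.35 and 0.24. FFPE tumour 50416 was highest at 0.86, followed by 60749 (0.54), 51234 (0.49) and 60636 (0.43), and 44331 was lowest at -0.46. In tumour 60636, 61 of 82 tested members lay above the control median (all genes 50.5%), and in tumour 44331 26 did (all genes 50.5%). Controls varied about as widely. FFPE controls ran from 26 of 82 in 47198 to 59 in 61478, and fresh-frozen controls from 35 of 90 in 60516 and 60629 to 62 in 60126. Fresh-frozen tumours 60461 (0.92), 60749 (0.69) and 60631 (0.34) were high, and 60636 (-0.31) and 60679 (-0.36) lay among the controls. By position, from 48 to 53 Mb, 7 of 11 FFPE tumours and 4 of 6 fresh-frozen tumours lay above every control, and from 58 Mb to the end 4 and 2 did. FFPE control 61478 was the highest control at 0.22.

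**Figure D4:**
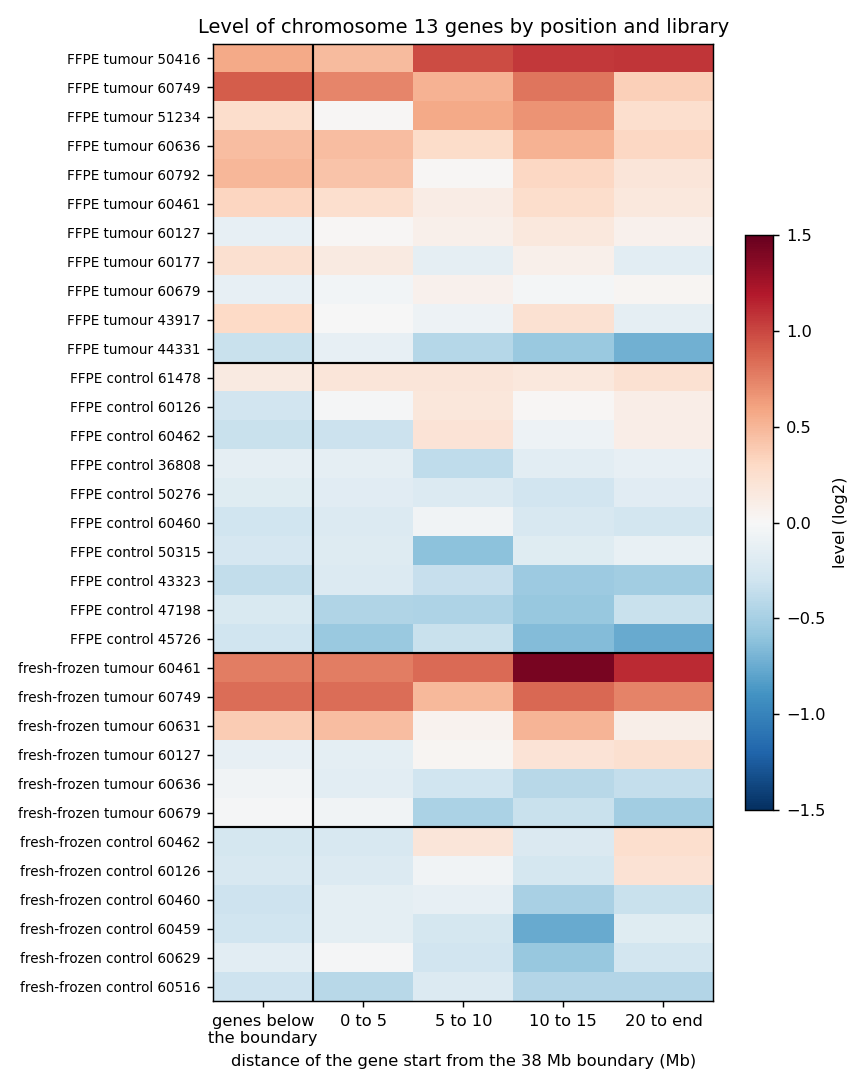
Level (log2, colour) of chromosome 13 genes in each library (one line per library, ordered by the level of the segment within its group) for genes below the boundary and for members by distance of their start from the 38 Mb boundary (x axis, Mb); the 5 Mb step with 1 tested member is not drawn. FFPE tumours 50416 and 60749 and fresh-frozen tumours 60461 and 60749 are red across the segment, and tumour 44331 is blue throughout.

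The rest of the chromosome was described in the same way. Genes below 38 Mb with the same exon and span limits (328 in the table) had 42 of 155 tested higher and 9 lower in FFPE (median 0.55). In fresh-frozen tissue 59 of 170 were higher and 16 lower (median 0.72). Chromosome 35, a second chromosome with many higher genes, had 34 of 119 higher and 10 lower in FFPE (median 0.42). Its fresh-frozen counts were 41 of 133 higher and 9 lower (median 0.48). Of the genes with 2 or more exons outside both chromosomes, 9.61% (FFPE) and 17.6% (fresh-frozen) were higher, and 11.2% and 12.5% lower. The level of genes below 38 Mb differed between tumour and control by 0.50 in FFPE and 0.57 in fresh-frozen tissue, and the difference from the segment's own was not tested.

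Variation among libraries of 1 group was not used to choose the segment, and 8 relations were computed on it. Among FFPE tumours (n = 11) the level of the members followed that of genes below 38 Mb, with Pearson's r = 0.785 (permutation p = 0.00464, adjusted 0.0222) and Spearman's rho = 0.782 (permutation p = 0.00586, adjusted 0.0469). Without the 2 tumours farthest from the median level below 38 Mb, r was 0.648 (permutation p = 0.0604), so the call rests on those tumours. Both levels come from the same libraries and share their scaling. The level of chromosome 35 genes also varied among FFPE tumours, from -0.24 in 44331 to 0.89 in 51234. A relation with it was not tested, so the correlation is not shown to be particular to chromosome 13. Among fresh-frozen tumours (n = 6) r was 0.935 (exact permutation p = 0.0236, adjusted 0.0630) and rho 0.714 (exact permutation p = 0.136, adjusted 0.363), and r was 0.775 without the 2 farthest. Among FFPE controls (n = 10) r was 0.601 (permutation p = 0.0648, adjusted 0.130) and rho 0.406 (permutation p = 0.248, adjusted 0.497), with r = 0.0847 without the 2 farthest. Among fresh-frozen controls (n = 6) r was 0.105 (exact permutation p = 0.863, adjusted 0.863) and rho 0.314 (exact permutation p = 0.564, adjusted 0.752), and r was 0.891 without the 2 farthest (exact permutation p = 0.125).

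**Figure D5:**
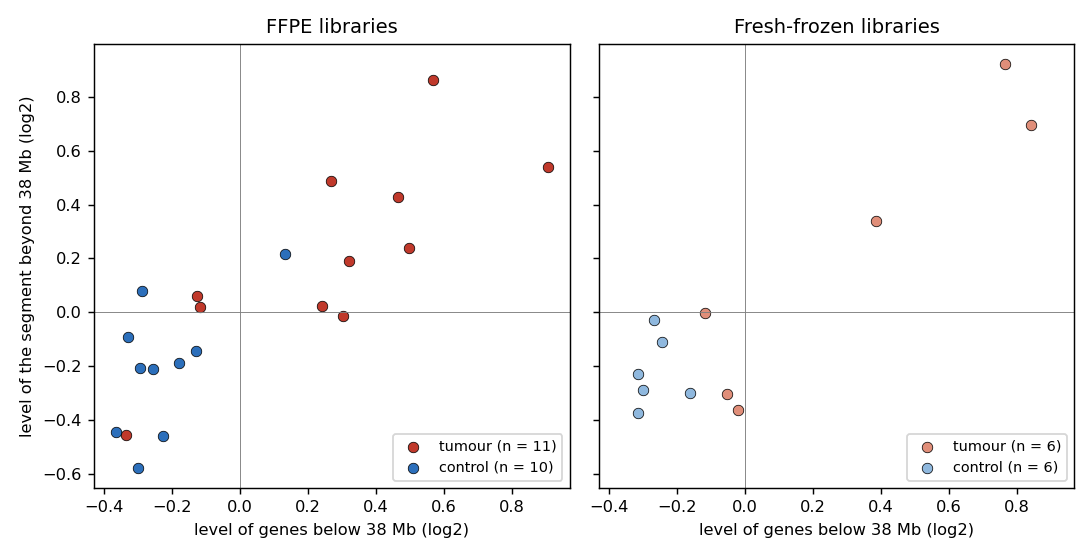
Level of the segment beyond 38 Mb (y axis, log2) against the level of chromosome 13 genes below 38 Mb (x axis, log2) in FFPE libraries (left) and fresh-frozen libraries (right), 1 point per library. Among FFPE tumours r was 0.785, and fresh-frozen tumours 60461 and 60749 hold the upper right corner.

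Depth was set against the level in the same way. Against the log10 total count, the level had r = 0.962 (exact permutation p = 0.00556, adjusted 0.0222) and rho = 0.943 (exact permutation p = 0.0167, adjusted 0.0667) in fresh-frozen controls (n = 6), and r = 0.973 without the 2 farthest. In FFPE tumours r was -0.0662 (permutation p = 0.851, adjusted 0.863), and -0.201 without the 2 farthest. In FFPE controls r was 0.279 (permutation p = 0.443, adjusted 0.709), and 0.0506 without the 2 farthest. In fresh-frozen tumours r was -0.267 (exact permutation p = 0.619, adjusted 0.826), and 0.717 without the 2 farthest (exact permutation p = 0.333), so its sign rests on those libraries. The part of depth in the tumour comparisons was not tested.

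How tissue was kept was a comparison independent of the choice of the segment. In the 8 dogs with both preservations, 111 members were tested by edgeR, with tissue as a covariate and no term for the dog. Of these, 0 were higher and 0 lower in FFPE than in fresh-frozen tissue, where 2.81% and 0.135% of all 17097 genes were. The smallest edgeR adjusted p among members was 0.101, 8 members (7.21%) had an unadjusted p under 0.05, as did 17.3% of all genes. With the dog as a block, 18 members (16.2%) and 25.5% of all genes had one, again with 0 members called. DESeq2 called 4 of 180 members and 5.14% of all genes higher. The members' median log2 difference was -0.05, the same as that of all genes. The member nearest to the threshold, at 62.53 Mb (6 exons), was 2.02 ± 0.63 higher in FFPE. The member with the largest difference, a 2-exon gene at 38.87 Mb, had 3.22 ± 1.25 (edgeR adjusted p = 0.190). Both were singled out after their values were seen.

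The segment's level differed between FFPE and fresh-frozen libraries of a dog by -0.04 on average (SD 0.43), above 0 in 4 of 8 dogs (two-sided exact sign-flip permutation p = 0.828, adjusted 0.828 over 3 tests; the smallest possible is 0.00781). Dogs differed in both directions, from -0.86 in tumour dog 60461 and -0.32 in 60749 to 0.28 in 60679 and 0.58 in 60636. The 3 control dogs lay between -0.04 and 0.13. In 2 of the tumour dogs the level was high in 1 tissue sample and not in the other: dog 60461 had 0.92 fresh-frozen and 0.19 in FFPE, and dog 60636 had -0.31 and 0.43, each against its own preservation's midpoint. Genes below 38 Mb differed by -0.40 and 0.67 in the same dogs.

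The tumour effect was compared between preservations by an interaction over all 33 libraries, with each library taken as independent although 8 dogs gave a library of each preservation. Of 95 members tested, edgeR called 0, as it did of all 15714 genes (0%), and DESeq2 called 0 members. An unadjusted p under 0.05 was held by 7 of the 95 members and by 575 of all 15714 genes. In all 7 members the tumour fold change was lower in FFPE than in fresh-frozen tissue. The directions of the 575 genes were not counted, so this is not shown to be particular to the members. The smallest p, 0.00504 (edgeR, adjusted 1.00), belonged to a 12-exon gene at 47.87 Mb, singled out after its values were seen, with an interaction of -1.80 ± 0.60 and fold changes of 0.70 in FFPE and 2.64 in fresh-frozen tissue.

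Breed was tested within FFPE tissue. The level of the segment was 0.32 ± 0.38 in Boxer tumours (SD, n = 4) and 0.17 ± 0.38 in French Bulldog tumours (n = 6), a difference of 0.15 (two-sided exact permutation p = 0.571, adjusted 0.828), which was -0.035 without tumour 50416. It was -0.08 ± 0.20 in Boxer controls (n = 4) and -0.36 ± 0.20 in French Bulldog controls (n = 5), a difference of 0.28 (two-sided exact permutation p = 0.103, adjusted 0.310), which was -0.15 without the filter on low counts. Neither passed the threshold, and neither result shows that the breeds are alike.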

How the data were processed

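The table deposited by the authors holds raw fragment counts for each gene in 33 libraries, obtained with featureCounts 1.6.0 (forward strand option 1, mapping quality of at least 10, Ensembl release 100 gene models of CanFam3.1), per the file headers. The submitters' processing notes also name fastp and STAR. Per the labels' protocols the library kit adds molecular identifiers of 12 nt; collapsing of reads by them is not stated in the labels or headers, and amplified copies may be counted.

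The members, comparison sets and alternatives were chosen with earlier results of these data known. Counts were fitted over all genes with edgeR 4.0.16 in R 4.3.3 (robust quasi-likelihood F test after filterByExpr and TMM, Benjamini-Hochberg adjustment at 0.05), with tissue as a covariate in the fit of the 8 dogs. DESeq2 1.42.0, RLE scaling and other filters, samples and covariates were alternatives. Log2 CPM used a prior count of 2. SE were derived from the F statistic. Levels were compared with exact permutation tests in Python 3.11.15. No 2 libraries of a group were close enough to be a single library deposited more than once (chi-square of 17.2 to 493.6 per degree of freedom).

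Identifiers are printed for the 2 highest and 2 lowest members by the smaller of both fold changes, among those called in both tumour comparisons, in the same direction, with an average log2 CPM of at least 2 and 80% of libraries on their own side of the other group's median. Up to 20 other members are given by position: the next of that order, the 5 most abundant per kb, and those at the limits of the definition. Same-numbered libraries come from the same dog, per the labels, and 7 of 8 pairs correlated above 0.1 in their deviations from the group means (0.0641 to 0.748).

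Tested on simulated data, the FFPE tumour fit recovered 24.2% of 2-fold and 83.1% of 4-fold changes (12895 genes). The fresh-frozen fit recovered 6.06% and 70.4% (14899 genes), and the interaction 3.16% and 54.5% (15178 genes). The fit of the 8 dogs with both preservations, without a term for the dog, recovered 11.5% and 57.1% (16426 genes). Its simulated libraries were drawn independently, so these shares do not describe a paired fit. No sequence is printed, because no genome of this build was used here.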

Additional observations from a re-analysis of the deposited data

Results flagged for a closer look

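Of 30 groups of library values tested with Dixon's criterion at the 95% level, 2 had a library far from the others, and chance gives about 1 in 20 groups. FFPE control 61478 had a level of 0.13 for chromosome 13 genes below 38 Mb, against a group range of -0.37 to 0.13 and a median of -0.27 (n = 10), and it also had the highest level of the segment among FFPE controls. Fresh-frozen control 60516 had 1.58 log2 CPM of ENSCAFG00000047276, against a group median of 2.72 (n = 6).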

How the results depend on the processing

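The filter on low counts set several values. Without it the FFPE tumour-minus-control difference of the segment's level was -0.030, the Boxer-minus-French-Bulldog difference in FFPE controls -0.15, the mean FFPE-minus-fresh-frozen level 0.19, 24 members were lower in FFPE tumours, 6 in fresh-frozen tumours, and the correlation with genes below 38 Mb was 0.46 in FFPE tumours and 0.74 in FFPE controls (adjusted p = 0.0128). DESeq2 called 15 members lower in FFPE tumours and 4 higher in FFPE against fresh-frozen tissue; over all genes with a count its median of the members was -0.90 in FFPE (all genes -0.49) and -0.05 in fresh-frozen tumours (all genes -0.14). Without the dogs of both preservations the FFPE calls were 9 higher and 5 lower. In the FFPE libraries whose own label states an age they were 4 and 2 (a setting chosen after seeing the data), and with age added 0 and 0. Without dogs 60126, 60127, 60461 and 60462 the fresh-frozen calls were 13 and 1. With the mean over members in place of the median, the FFPE-minus-fresh-frozen level was 0.11, and the correlation with genes below 38 Mb was 0.59 in FFPE tumours and -0.72 in fresh-frozen controls; without the 2 farthest libraries it was 0.65 in FFPE tumours. The cause was not tested. Leaving out 1 library at a time gave 17 to 27 higher and 6 to 12 lower members in FFPE tissue, 25 to 36 and 5 to 13 in fresh-frozen tissue, level differences of 0.36 to 0.50 and 0.31 to 0.56, breed differences of -0.035 (without tumour 50416) to 0.26 in tumours and 0.18 to 0.34 in controls, and, by dog, 0 to 2 members higher (2 without 60749, 1 without 60460) and 0 to 0 lower in FFPE against fresh-frozen tissue and a mean level difference of -0.13 to 0.11 (above 0 without 60461). Over all genes, leaving out 1 library gave 1047 to 1606 higher and 1092 to 1807 lower in FFPE tissue. In fresh-frozen tissue it gave 1941 to 2944 and 1145 to 2335. With the dog as a replicate block, 0 members were higher and 0 lower between preservations, and 18 had an unadjusted p under 0.05. The pairing thus changed no call of a member. Over all genes it moved the higher calls from 481 to 571 and the lower calls from 23 to 84. RLE scaling gave 24 higher and 8 lower members in FFPE tissue and 33 and 11 in fresh-frozen tissue. In the FFPE libraries whose own label states an age, 2 calls were lost without the covariate. These were ENSCAFG00000001802 (log2 fold change 1.00 ± 0.44, edgeR adjusted p = 0.184) and ENSCAFG00000001878 (-2.21 ± 0.62, edgeR adjusted p = 0.0503). With age added the FFPE calls of all 4 named members were lost (edgeR adjusted p from 0.202 to 0.388). Their log2 fold changes were then 2.25 ± 0.84, 1.10 ± 0.53, -2.26 ± 1.02 and -2.73 ± 1.49. In fresh-frozen tissue the call of ENSCAFG00000044799 was also lost without the filter (0.105) and without dogs 60126, 60127, 60461 and 60462 (0.0708). In FFPE tissue 30 members had at least 10 counts in every library, and 56 without the shallowest, control 50315 (406406 counts).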

Other observations

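Of the 47 single-exon genes of the segment that the definition leaves out, few passed the filter on low counts. In FFPE tissue 5 were tested, 0 were called higher and 0 lower, and their median log2 fold change was 0.32. In fresh-frozen tissue 6 were tested, 2 of them higher and 0 lower (median 0.71).

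Fresh-frozen tumours with a high level of the segment also had positive scores on the first principal component. It was taken on deviations from the group means over all tested genes and held 34.6% of their variance. The scores were 0.52 in 60749, 0.48 in 60631 and 0.14 in 60461, against -0.33 in 60127, -0.39 in 60636 and -0.43 in 60679. Fresh-frozen control 60516, with the lowest control level of the segment (-0.37), lay at 0.14, and the other fresh-frozen controls between -0.07 and 0.05. FFPE tumours 50416 and 60749, with the highest levels of the segment (0.86 and 0.54), had the lowest values of ENSCAFG00000044799 (-1.61 and -1.29 log2 CPM).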
